A study of Mus musculus with 6 samples.

Results

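Neurotransmitter receptor genes were examined in single-cell RNA-seq data of striatal astroglia. The set was taken by gene symbol alone and held the ionotropic and metabotropic glutamate receptors, the GABA-A and GABA-B receptors, and the adrenergic, acetylcholine, dopamine and serotonin receptors. It comprised 94 of the 32285 genes of the expression table, of which 92 were receptor genes and 2 were opposite-strand RNA genes with a matching symbol (*Grin1os* and *Chrna1os*). Cells came from the striatum of wild-type male C57BL/6 mice at postnatal day 3 (P3) or at 3 months (3m), without any transgene or treatment. Astrocytes were enriched with magnetic beads against the surface antigen ACSA2 and sequenced as 3′ single-cell libraries, with 3 independent preparations at each age. Each preparation pooled several animals, so a library represents a pool and not a single mouse, and p-values measure the spread between these pools. Expression was counted as unique molecular identifiers (UMIs), and levels are given as UMIs per 1000000 UMIs of the same cells (CPM). A transcript is counted once at its 3′ end in this assay, so CPM values do not scale with transcript length.

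Glutamate and GABA act on cells through ligand-gated channels and through G protein-coupled receptors. AMPA, kainate, NMDA and GABA-A receptors are channels assembled from several subunits, each encoded by its own gene, and the subunit mix sets the properties of the channel. Metabotropic glutamate, GABA-B, adrenergic, muscarinic, dopamine and most serotonin receptors signal through G proteins, and in astrocytes they are best known for calcium and cyclic AMP responses to transmitter released by neighbouring neurons.

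The study's annotation assigned 9992 of 16690 barcodes to astroglia, 8874 at P3 and 1118 at 3m, in 17 sub-clusters. Summed astrocyte markers (8 genes) lay between 5118 and 6160 CPM in the P3 libraries and between 14856 and 15770 CPM in the 3m libraries. The astroglial cells gave 22327104 to 30617140 UMIs per P3 library and 1157485 to 1843998 UMIs per 3m library, so a single UMI corresponded to 0.864 CPM in the smallest 3m library. Other properties moved with age beside the receptors, and their part in the receptor levels was not tested. The median mitochondrial share was 1.27 to 2.47% at P3 and 5.97 to 8.18% at 3m, the 8 oligodendrocyte markers together reached 5.91 to 6.99 CPM at P3 and 721 to 1893 CPM at 3m, the 6 microglial markers 0.269 to 1.14 and 6.79 to 54.2 CPM, and the 10 neuronal markers reached 315 to 360 CPM and 293 to 317 CPM. Per the study, some sub-clusters grouped with non-telencephalic cells of a reference dataset, and the remaining ones are called telencephalic here. Telencephalic sub-clusters held 92.4, 70.8 and 48.5% of the astroglial cells of P3 replicates 1, 2 and 3, and 92.0, 52.2 and 86.1% of those of 3m replicates 1, 2 and 3. Results that rest on this mix are therefore given for the telencephalic sub-clusters as well. Of 16653 distinct barcode sequences, 37 occurred in 2 libraries.

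The summed level of all 92 receptor genes was higher in adult than in early postnatal astroglia. It was 1327, 925 and 1067 CPM in the P3 libraries and 2400, 1985 and 1906 CPM in the 3m libraries, with no overlap between the ages. The families differed in this respect, and because they are sums over genes chosen by symbol their levels are given without a test. NMDA receptor genes had 17.3 ± 4.13 CPM (SD, n = 3) at P3 and 233 ± 69.8 CPM at 3m, AMPA receptor genes 238 ± 69.3 and 667 ± 144 CPM, and GABA-A receptor genes 174 ± 16.8 and 543 ± 68.3 CPM. Kainate receptor genes, with 40.6 ± 5.95 and 41.8 ± 1.30 CPM, and the 2 GABA-B receptor genes, with 295 ± 47.6 and 303 ± 33.3 CPM, had overlapping levels at both ages. The plot of family sums shows these families beside the sparsely detected ones.

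**Figure D1:**
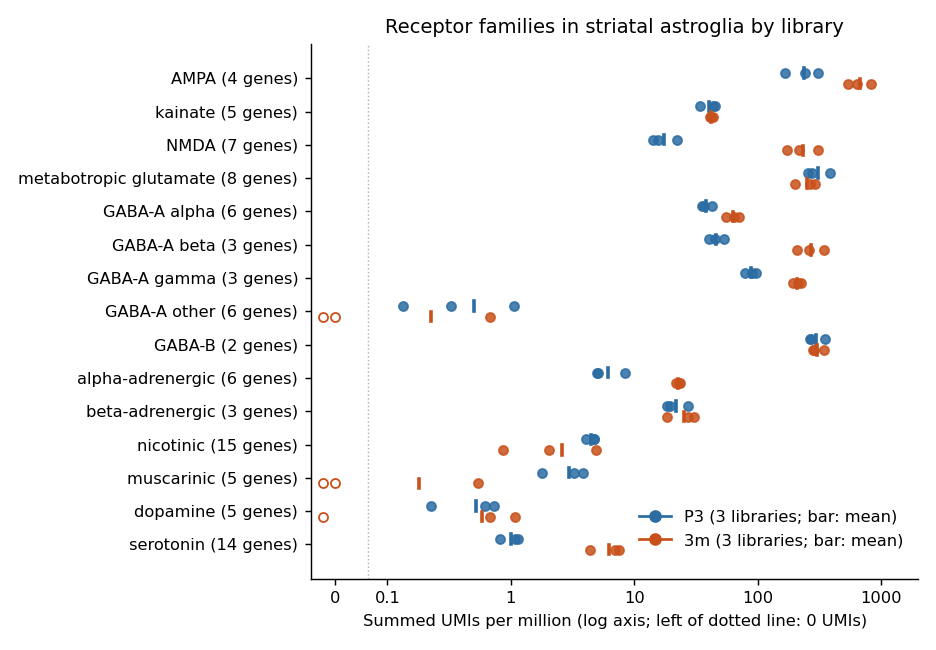
Summed CPM of the genes of each receptor family in astroglia (x axis, log scale, with libraries at 0 UMIs drawn as open circles left of the dotted line), 1 point per library and bars at the mean of the 3 libraries of an age. GABA-A genes are split by subunit class. NMDA, AMPA, GABA-A alpha, beta and gamma, alpha-adrenergic and serotonin sums lay higher in all 3 3m libraries than in any P3 library, while kainate, GABA-B and beta-adrenergic sums overlapped between the ages.

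To compare the ages gene by gene, UMIs were summed per library over the astroglial cells and tested with edgeR's quasi-likelihood test across 13530 genes. Here 31 of the 94 members had enough counts to be tested. The other 63 had at most 69 UMIs over all 6 libraries and at most 7 at 3m, and 11 of them had none. Calls needed an adjusted p no higher than 0.05 together with a log2 fold change of 1 or more in either direction. In this comparison 10 receptor genes rose and 4 fell from P3 to 3m, which is 45.2% of the tested members, while 32.1% of all genes tested were called (15.8% higher and 16.3% lower). The median log2 fold change was 0.44 over the tested members and -0.04 over all genes tested. The libraries of the ages did not overlap for any of the 14 called genes. A call at these thresholds favours such separation, and its share among all called genes was not computed. All 14 were also called in the telencephalic sub-clusters alone, and again when 3m replicate 2 was left out.

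**Figure D2:**
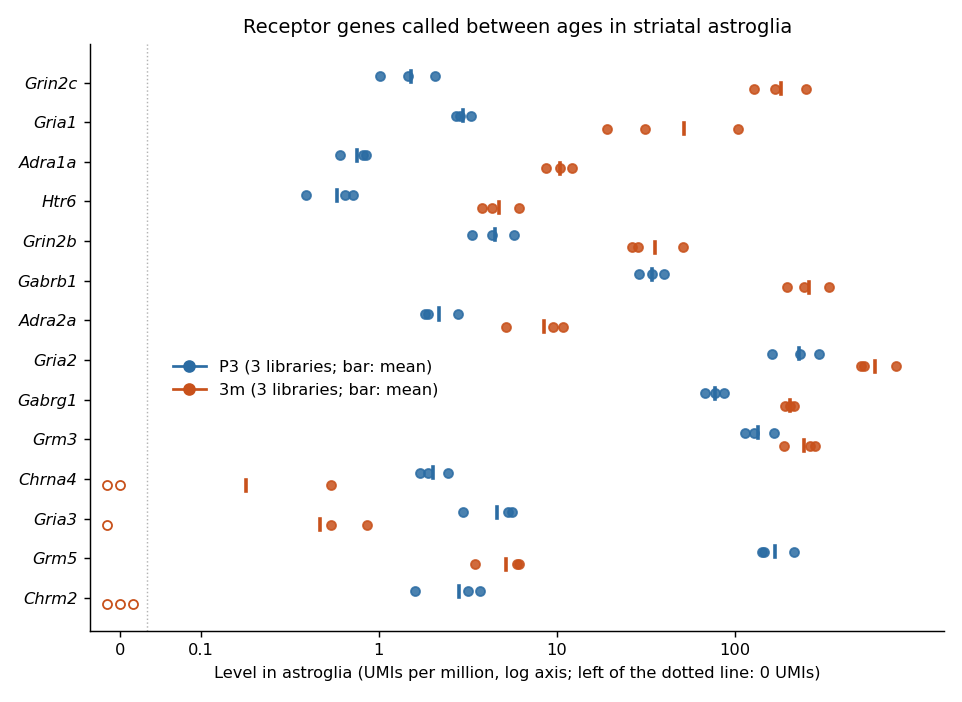
CPM of the 14 called receptor genes in the astroglia of each library (x axis, log scale, with libraries at 0 UMIs drawn as open circles left of the dotted line), ordered by log2 fold change, with bars at the mean of 3 libraries. The ages do not overlap in any row, *Grin2c* is at 1.01 to 2.06 CPM at P3 and 127 to 251 CPM at 3m, and *Chrm2* is at 0 in all 3 3m libraries.

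Among the AMPA receptor genes, *Gria2*, which encodes the subunit that keeps these channels largely closed to calcium, was the most abundant member at either age. *Gria2* (chr3:80681450-80802835 in GRCm38, minus strand) had 297, 161 and 232 CPM in the P3 libraries and 805, 529 and 511 CPM in the 3m libraries. It rose 3.06-fold (log2 fold change 1.61 ± 0.24 (SE), edgeR adjusted p = 9.88e-05). *Gria1* (chr11:57011387-57330244, plus strand), a subunit of calcium-permeable AMPA receptors when *Gria2* is missing, had 2.87, 2.71 and 3.30 CPM at P3 and 19.01, 104 and 31.2 CPM at 3m. The adult libraries were all higher but differed widely among themselves, and 3m replicate 2 stood above the other two libraries (log2 fold change 4.38 ± 0.46, edgeR adjusted p = 5.95e-06). The adult *Gria1* UMIs lay mostly in sub-clusters 13 and 16, outside those called telencephalic, which held 17, 257 and 49 astroglial cells of 3m replicates 1, 2 and 3. Sub-clusters 13 and 16 had 309, 212 and 114 CPM of *Gria1* in 3m replicates 1, 2 and 3, and sub-clusters 7 and 14 had 2.74, 10.4 and 16.1 CPM. In telencephalic sub-clusters alone the log2 fold change of *Gria1* was 1.70 and without 3m replicate 2 it was 3.24, so the direction and the call held but the size did not.

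*Gria3* (chrX:41400854-41678601, plus strand) went the other way. It had 5.33, 2.97 and 5.57 CPM at P3 and 0.864, 0.542 and 0 CPM at 3m, where only 2 UMIs were counted in all. The pooled ratio of P3 to 3m was 10.0, with an exact 95% interval of 2.75 to 83.0 that covers counting error only, and the edgeR adjusted p was 0.00325. *Gria4* had 69 UMIs at P3 and 2 at 3m in astroglia and did not pass the test (edgeR adjusted p = 0.492). As a share of all AMPA receptor UMIs, *Gria2* made up 96.4 ± 0.58% at P3 and 91.7 ± 7.39% at 3m, and *Gria1* 1.31 ± 0.35% and 8.16 ± 7.36%, where the adult spread again came from 3m replicate 2, at 16.4%.

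The kainate receptor genes had similar levels at the 2 ages. *Grik5*, an auxiliary high-affinity subunit, had 30.6, 22.3 and 28.3 CPM at P3 and 27.6, 22.2 and 27.8 CPM at 3m (log2 fold change 0.12 ± 0.19, edgeR adjusted p = 0.616). *Grik2*, which forms channels with it, had 11.4 ± 1.44 and 13.5 ± 0.41 CPM, with every 3m library above every P3 library (log2 fold change 0.44 ± 0.22, edgeR adjusted p = 0.109). Neither passed the test.

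The largest change of any called receptor gene with UMIs in every library was that of *Grin2c*. It encodes an NMDA receptor subunit that gives channels with weak magnesium block and is known as the astrocyte-enriched member of the GluN2 group. *Grin2c* (chr11:115249169-115267243, minus strand) had 2.06, 1.01 and 1.46 CPM in the P3 libraries and 251, 127 and 168 CPM in the 3m libraries. Every adult library was far above every early one, and the fold change was 138 (log2 fold change 7.11 ± 0.31, edgeR adjusted p = 4.55e-09). *Grin2b* (chr6:135713233-136173511, minus strand), the GluN2 subunit of young neurons, rose too, from 5.78, 3.33 and 4.31 CPM to 51.0, 26.6 and 28.5 CPM (log2 fold change 3.15 ± 0.27, edgeR adjusted p = 1.11e-06). *Grin3a*, whose product dampens NMDA receptor currents, had 8.61 ± 2.72 CPM at P3 and 13.8 ± 5.97 CPM at 3m, overlapping levels with an edgeR adjusted p of 0.0343 and a log2 fold change (0.93) under the threshold. *Grin1*, the subunit that every NMDA receptor requires, was sparse at both ages, with 2.19, 2.38 and 2.93 CPM at P3 and 0, 0.542 and 2.04 CPM at 3m, without overlap (edgeR adjusted p = 0.139). In 3m astroglia 4 *Grin1* UMIs were counted against 774 of *Grin2c* and 150 of *Grin2b*. The composition of the family thus moved from *Grin3a*, at 49.4 ± 5.48% of NMDA receptor UMIs at P3, to *Grin2c*, at 77.6 ± 3.69% at 3m.

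The 250 bases before the annotated start of *Grin2c* are shown because this gene had the largest measured rise (RefSeq, GRCm38.p6, chr11:115267244-115267493, read 5′ to 3′ on the minus strand). Capitals mark matches to GGGCGG (a GC box) and to AGGTCA (a nuclear receptor element).
*Grin2c*: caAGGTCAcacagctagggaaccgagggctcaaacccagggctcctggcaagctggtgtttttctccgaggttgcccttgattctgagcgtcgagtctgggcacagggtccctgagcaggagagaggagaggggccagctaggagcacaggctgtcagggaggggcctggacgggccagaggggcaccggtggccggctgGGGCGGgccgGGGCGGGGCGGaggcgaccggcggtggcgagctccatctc
Both strands were searched for GGGCGG as the GC box, for CCAAT as its namesake box, for TATAAA as the core promoter box, for AGGTCA as the nuclear receptor element and for TGACG as the core of the cyclic AMP response element. The *Grin2c* window held 3 GC boxes, of which 2 overlap by 1 base, and 1 match to AGGTCA at its far end, with no match to the other motifs. Its GC content was 68.8%, against a median of 52.4% over 32851 windows of the same length, of which 32.7% held GGGCGG and 14% held AGGTCA on either strand. Reads from 3′ ends do not show which start was used, so these matches describe the sequence only.

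The main metabotropic glutamate receptors moved in opposite directions. *Grm5* (chr7:87584168-88134907, plus strand), which couples to Gq and releases calcium from stores, had 214, 142 and 146 CPM in the P3 libraries and 3.46, 5.97 and 6.11 CPM in the 3m libraries. The ages were widely separated, and *Grm5* fell by 4.77 on the log2 scale (27.3-fold lower, SE 0.28, edgeR adjusted p = 3.53e-08). *Grm3* (chr5:9485541-9725170, minus strand), which couples to Gi and lowers cyclic AMP, had 165, 113 and 127 CPM at P3 and 264, 188 and 283 CPM at 3m. It rose 2.06-fold (log2 fold change 1.05 ± 0.20, edgeR adjusted p = 0.000719), close to the fold threshold, and lay under it in 5 of 16 refits, at 0.88 in non-cycling cells alone, at 0.93 with no filter on low counts, at 0.85 without scaling beyond library totals, and at 0.95 and 0.86 without 3m replicate 1 or 3. The ratio of *Grm3* to *Grm5* UMIs was 0.814 ± 0.05 at P3 and 51.3 ± 22.8 at 3m. Of the other 6 genes of this family none had more than 69 UMIs in astroglia and none was tested. In telencephalic cells alone *Grm5* was at 1.99 ± 1.74 CPM at 3m, and its log2 fold change there was -6.37.

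The GABA-A receptor genes that rose encode a beta and a gamma subunit, both parts of the channel core. *Gabrb1* (chr5:71658113-72149037, plus strand) had 34.3, 28.8 and 39.7 CPM in the P3 libraries and 339, 246 and 196 CPM in the 3m libraries, an 8.63-fold rise (log2 fold change 3.11 ± 0.21, edgeR adjusted p = 9.36e-08). *Gabrg1* (chr5:70751047-70842617, minus strand), the gamma subunit typical of glia, had 86.3, 67.5 and 77.5 CPM at P3 and 191, 214 and 204 CPM at 3m. Libraries of an age were close together and the ages were apart (log2 fold change 1.59 ± 0.16, edgeR adjusted p = 4.01e-06). The alpha subunits *Gabra2*, with 13.2 ± 1.73 and 22.0 ± 4.14 CPM, and *Gabra4*, with 24.5 ± 3.54 and 39.4 ± 4.78 CPM, had edgeR adjusted p-values of 0.00227 and 0.00129 at log2 fold changes of 0.91 and 0.88, below the threshold, with no overlap between the ages. The log2 fold change of *Gabra2* depended on the cells used. It was 0.05 after a stricter cell filter (over 1000 genes and under 5% mitochondrial UMIs, which kept 12 cells of 3m replicate 1). Without cells carrying markers of another class it was 0.62.

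These 4 genes are neighbours in 1 cluster on chromosome 5, in the order *Gabrg1*, *Gabra2*, *Gabra4* and *Gabrb1*. *Gabra4* and *Gabrb1* are transcribed away from each other and overlap by 0.196 kb at their 5′ ends. All 4 had positive log2 fold changes with an edgeR adjusted p under 0.05 at any fold, as did 23.3% of all genes tested. In the cluster on chromosome 7, *Gabrg3* had 11.4 ± 1.52 CPM at P3 and 5.96 ± 4.94 CPM at 3m (edgeR adjusted p = 0.218), and *Gabra5* had 15 UMIs at P3 and 0 at 3m. *Gabrg3* depended on 3m replicate 2, which had 11.4 CPM against 1.73 and 4.75 CPM in the other adult libraries, and without that library it was called lower (log2 fold change -1.60, edgeR adjusted p = 0.0114). *Gabrb2*, a beta subunit typical of mature neurons, had 161 UMIs at P3 and 2 at 3m (edgeR adjusted p = 0.0523).

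The windows before *Gabrg1* and *Gabra2*, neighbours at one end of the chromosome 5 cluster, are shown because their genes are adjacent and both had an adjusted p under 0.05 with higher levels at 3m (RefSeq, GRCm38.p6, chr5:70842618-70842867 and chr5:71095850-71096099, both read 5′ to 3′ on the minus strand). Capitals mark GGGCGG and ATTGG, the reverse complement of CCAAT.
*Gabrg1*: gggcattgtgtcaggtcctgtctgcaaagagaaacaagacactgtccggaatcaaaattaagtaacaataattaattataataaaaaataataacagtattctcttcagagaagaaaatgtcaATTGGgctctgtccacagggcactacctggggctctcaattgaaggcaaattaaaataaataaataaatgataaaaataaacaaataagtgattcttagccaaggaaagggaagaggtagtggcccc
*Gabra2*: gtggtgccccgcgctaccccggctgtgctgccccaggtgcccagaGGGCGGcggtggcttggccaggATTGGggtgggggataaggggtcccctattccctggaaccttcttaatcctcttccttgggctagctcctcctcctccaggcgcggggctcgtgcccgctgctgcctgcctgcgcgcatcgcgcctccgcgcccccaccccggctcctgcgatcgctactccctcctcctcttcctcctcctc
The GC content was 35.6% for *Gabrg1* and 70% for *Gabra2*, on either side of the median of all windows. Both windows held 1 CCAAT box, as did 33.8% of all windows, and *Gabra2* held 1 GC box. Of all members, 69 had a promoter window in the table used.

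The GABA-B receptor works only as a pair of its subunits, and both genes were among the most abundant members at each age. *Gabbr1* had 249, 202 and 197 CPM at P3 and 197, 225 and 226 CPM at 3m (log2 fold change 0.19 ± 0.17, edgeR adjusted p = 0.376). *Gabbr2* had 100.5, 64.4 and 71.1 CPM at P3 and 88.1, 116 and 55.7 CPM at 3m (log2 fold change 0.34 ± 0.24, edgeR adjusted p = 0.257). The ages overlapped for both, and the sign of either log2 fold change turned under 2 alternatives each.

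Noradrenaline reaches astrocytes through alpha and beta adrenergic receptors. *Adra1a* (chr14:66635251-66771168, plus strand), a Gq-coupled receptor, had 0.851, 0.817 and 0.610 CPM at P3 and 10.4, 8.68 and 12.2 CPM at 3m, where 46 UMIs were counted (log2 fold change 3.94 ± 0.37, edgeR adjusted p = 2.08e-06). *Adra2a* (chr19:54044151-54048982, plus strand), a Gi-coupled receptor, had 2.78, 1.89 and 1.83 CPM at P3 and 5.18, 10.8 and 9.51 CPM at 3m (log2 fold change 2.21 ± 0.37, edgeR adjusted p = 0.000308). In telencephalic sub-clusters alone its log2 fold change was 1.23. *Adrb1*, the Gs-coupled receptor, was the most abundant of the adrenergic genes and overlapped between ages, with 27.0, 19.01 and 17.9 CPM at P3 and 30.2, 18.4 and 27.2 CPM at 3m (edgeR adjusted p = 0.163). *Adra1b* had 2.94 ± 1.38 and 2.24 ± 3.31 CPM (edgeR adjusted p = 0.664), and of the 8 adult UMIs 7 came from 3m replicate 1.

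The remaining families were sparse in astroglia. *Chrm2* (chr6:36388084-36528414, plus strand), a Gi-coupled muscarinic receptor, had 3.18, 1.60 and 3.70 CPM at P3 from 211 UMIs and no UMI in any 3m library. The 0 count at 3m allows up to 0.671 CPM (3 UMIs over the pooled adult libraries), so *Chrm2* was at least 4.06-fold lower at 3m (edgeR adjusted p = 0.0054). *Chrna4* (chr2:181018380-181043546, minus strand), an alpha subunit of the common neuronal nicotinic receptor, had 2.46, 1.89 and 1.71 CPM at P3 and 0, 0.542 and 0 CPM at 3m. Its single adult UMI gives a ratio of P3 to 3m of 8.94 with an exact 95% interval of 1.58 to 356, and the edgeR adjusted p of 0.0211 rose to between 0.0516 and 0.693 under 4 alternatives. *Chrnb2*, which pairs with it, had 0.819 ± 0.11 and 1.51 ± 0.60 CPM (edgeR adjusted p = 0.136). *Htr6* (chr4:139061108-139075570, minus strand), a Gs-coupled serotonin receptor, had 0.717, 0.392 and 0.651 CPM at P3 and 4.32, 3.80 and 6.11 CPM at 3m, where 21 UMIs were counted (log2 fold change 3.21 ± 0.47, edgeR adjusted p = 9.58e-05). *Chrnb2*, *Adra1b*, *Grik2*, *Grin3a* and other members outside the rule for named genes are given to complete their families and were chosen after their values were seen. The other 13 serotonin receptor genes had at most 9 UMIs each, and none of the 5 dopamine receptor genes was tested, with *Drd3* highest at 22 UMIs, all at P3. *Chrna1os* had 6.27 ± 0.25 and 6.40 ± 0.56 CPM (edgeR adjusted p = 0.542), while *Chrna1* on the opposite strand had 2 UMIs. Whether strand was used in counting is not given in the sources used here, so reads of these partners cannot be told apart. *Grin1os* had no UMI.

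Whether a higher level came with more cells carrying the transcript was examined by thinning every astroglial cell to 2000 UMIs, since cells were shallower at 3m (median 3631 UMIs, against 7307 at P3). Cells below that depth were left out, 48, 118 and 947 at P3 and 16, 141 and 55 at 3m. *Grin2c* was found in 0.310, 0.235 and 0.352% of the thinned P3 cells and in 34.0, 20.5 and 28.9% of the thinned 3m cells. *Gabrb1* was found in 7.43, 6.53 and 8.21% and in 45.7, 36.8 and 31.6%, and *Gria2* in 40.2, 24.6 and 29.8% and in 73.6, 52.8 and 58.2%. *Grm5* went from 31.5, 19.7 and 19.7% to 1.02, 1.23 and 1.32%. In each case the 3 libraries of an age did not overlap with those of the other, and the two-sided exact permutation p was 0.1, the smallest that 3 libraries against 3 can give. The 21 genes examined were the 14 called genes and the uncalled members among the 12 most abundant at each age. Of these, 11 had a higher and 4 a lower share at 3m without overlap, which were the 14 called genes and *Gabra4*. The called genes were picked from these same libraries, so this count gives them no separate support. The share of all genes without overlap was not computed. *Gabbr1* was found in 35.6 ± 4.41% and 35.8 ± 1.75% of cells (exact permutation p = 1). In microglia of the same libraries, thinned alike (median 6223 UMIs at P3 and 3939.5 at 3m), *Gria2* was found in 2.86% of cells at P3 and in 0 of 53 at 3m (which allows up to 5.66%), *Grm5* in 1.90% and 0 of 53, and *Gabbr1* in 5.71% and 11.3%. The share of adult astroglia with *Grm5* lay below the limit that 0 of 53 adult microglia allows, so it could not be told from that of adult microglia at this depth. By level, *Grm5* had 16.3, 12.8 and 21.9 CPM in sub-clusters 13 and 16 of 3m replicates 1, 2 and 3 (1, 11 and 5 UMIs) and 2.74, 0 and 3.22 CPM in sub-clusters 7 and 14. Oligodendrocytes of the same libraries had 0.857, 0.787 and 0.369 CPM of *Grm5*. *Grin2c* was found in no microglial cell and in 1.33% of 150 adult endothelial cells. Without thinning *Grin2c* was found in 0.872 to 1.91% of P3 cells and 30.4 to 62.9% of 3m cells, and *Grm5* in 35.7 to 72.6% and 1.41 to 2.51%.

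Within an age the astroglial sub-clusters had different receptor profiles. Sub-clusters and cell types were made from all genes of the same cells, so these levels are a description without a test. At P3 the telencephalic and the other sub-clusters differed in several members. *Grm5* had 225, 176 and 197 CPM in telencephalic cells of P3 replicates 1, 2 and 3 and 9.20, 5.37 and 24.7 CPM in the other cells of the same libraries. *Gabbr2* had 92.4 ± 14.6 and 11.7 ± 5.03 CPM, *Grm3* 158 ± 19.8 and 29.4 ± 7.88 CPM, and *Gria2* 261 ± 63.0 and 70.5 ± 32.2 CPM, each lower in the other cells of all 3 libraries. *Gabrb1* ran the other way, with 29.1, 18.0 and 24.1 CPM in telencephalic cells and 126, 71.9 and 77.5 CPM in the rest, and so did *Gabrg3* (7.38 ± 1.28 and 31.6 ± 6.02 CPM) and *Chrm2* (2.03 ± 0.84 and 7.22 ± 3.65 CPM). Between the ages, the log2 fold change of *Gabrb1* in telencephalic cells alone was 3.59. At 3m *Gabrb1* and *Gabbr2* overlapped between these cells, with *Gabrb1* at 253 ± 80.1 and 251 ± 25.7 CPM and *Gabbr2* at 76.2 ± 18.0 and 96.3 ± 49.0 CPM. *Gria1* and *Adra2a* were higher in the other adult cells than in telencephalic ones in all 3 libraries, with 9.72 ± 6.70 and 210 ± 98.2 CPM, and 4.51 ± 0.36 and 23.1 ± 10.1 CPM. For *Adra2a* the value of 3m replicate 1 rested on 1 UMI in 17 other cells.

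**Figure D3:**
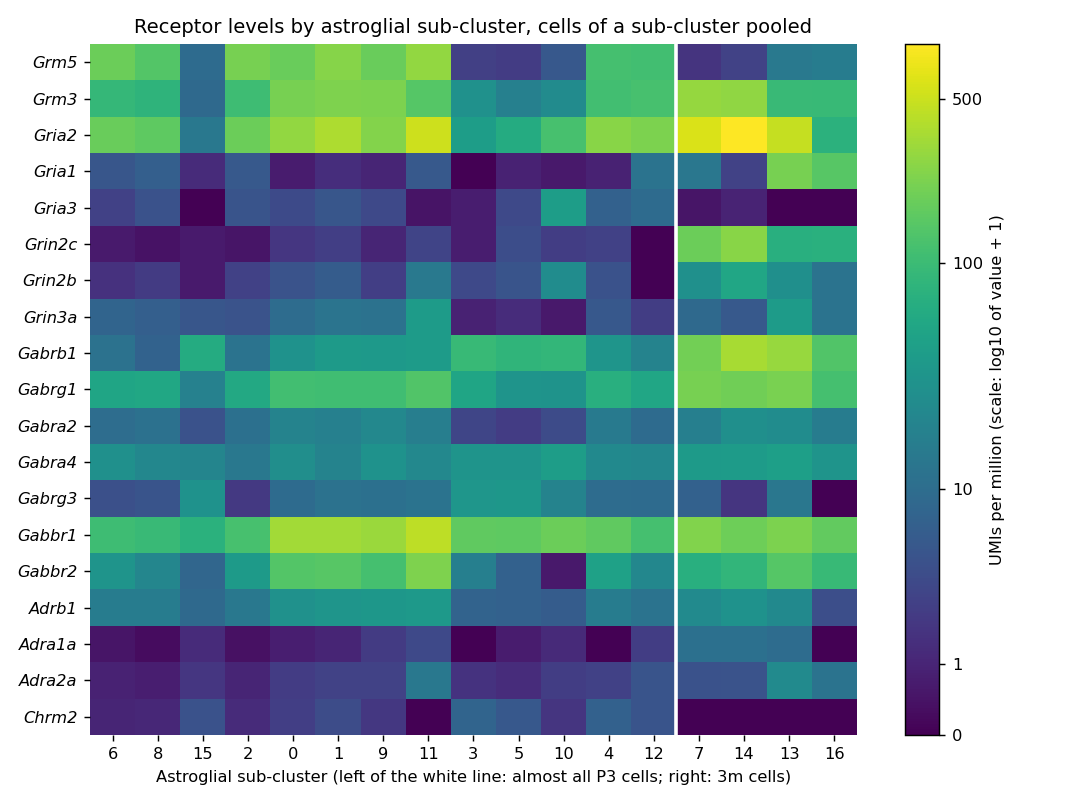
Pooled CPM of 19 receptor genes in the 17 astroglial sub-clusters (columns, P3 sub-clusters left of the white line and 3m sub-clusters right of it), with colour on a log10 scale of CPM + 1. *Grm5* is at 182 to 289 CPM in sub-clusters 0, 1, 2, 6 and 11 and below 10 CPM in 3, 5, 10 and 15, and *Gria1* stands out in the adult sub-clusters 13 (212 CPM) and 16 (149 CPM).

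Single sub-clusters added detail. Sub-cluster 11 (307 P3 cells, drawn from all 3 libraries) had the highest pooled level of *Gabbr1* (431 CPM), *Gabbr2* (233 CPM), *Grm5* (289 CPM) and *Adrb1* (37.5 CPM) of all sub-clusters, and within P3 also of *Gria2* (513 CPM), *Adra2a* (14.1 CPM) and *Grin3a* (40.1 CPM). Sub-cluster 10 (332 P3 cells) had the highest *Gria3* of all sub-clusters, at 41.7 CPM, and the highest *Grin2b* within P3, at 25.4 CPM, and 72.3% of its cells came from P3 replicate 3. Sub-cluster 15 had *Gria2* at 14.1 CPM. Some sub-clusters were mainly 1 library, namely 1 (95.5% P3 replicate 1), 4 and 12 (97.8 and 96.1% P3 replicate 3, with medians of 1048 and 985.5 UMIs per cell) and 14 (98.9% 3m replicate 1), so their values cannot be told apart from those of that library. The adult sub-clusters 13 and 16 drew 83.2 and 73.6% of their cells from 3m replicate 2. The sub-clusters of 1 library include the highest *Gria2*, *Gabrb1* and *Grin2c* levels of any sub-cluster, 855, 350 and 258 CPM in sub-cluster 14.

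Along the deposited pseudotime, cells of the main trajectory were divided into 20 equal bins, of which bins 2 to 19 held 30 or more cells each. Bins 2 to 14 held almost only P3 cells, bin 15 held 31 cells of which 22 were from 3m, and bins 16 to 19 held 3m cells alone, so age and late pseudotime cannot be told apart there. Bins 16, 17, 18 and 19 had medians of 1875, 3677, 5472 and 7529.5 UMIs per cell. Their median mitochondrial shares were 5.88, 5.67, 7.66 and 8.77%. Differences among these adult bins cannot be told apart from those in depth and mitochondrial share. *Gabbr2* was at 8.88 CPM in bin 10 and reached 165 CPM in bin 14, still within P3, and then had 35.1 to 129 CPM in bins 16 to 19. *Gabbr1* (50.8 and 372 CPM), *Grm3* (40.5 and 230 CPM) and *Gabrg1* (43.4 and 121 CPM) were also higher in bin 14 than in bin 10. *Grm5* kept 111 to 226 CPM from bin 2 to bin 14 and was at 0 to 3.92 CPM in bins 16 to 19. *Grin2c* was at 2.68 CPM or less up to bin 14 and at 153, 184, 223 and 298 CPM in bins 16 to 19, and *Gabrb1* went from 39.3 CPM in bin 14 to between 208 and 329 CPM. *Gria2* was higher in late bins of both ages, from 113 CPM in bin 10 to 344 CPM in bin 14 and to 596 to 688 CPM in bins 16 to 19. Among these genes *Gabbr1* and *Gabbr2* thus had their highest level in the last P3 bin, and *Grin2c*, *Gabrb1* and *Gria2* in bins of 3m cells, as the plot along pseudotime shows.

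Because P3 astroglia include dividing cells, cycling cells (a UMI in at least 2 of *Mki67*, *Top2a* and *Cdk1*) were compared with all other P3 astroglia within each library. The comparison used 335, 477 and 500 cycling cells and edgeR with the library as a block. The cycling cells gave 6186452, 8591503 and 6257731 UMIs. The 1650, 2626 and 3286 other cells gave 16140652, 22025637 and 18324686 UMIs, so cycling cells were deeper per cell in each library. Dividing cells too shallow to meet the rule would count among the others, and the part of depth was not tested. Of 34 members tested, 11 were lower and 2 higher in cycling cells, while 17.7% of 13726 genes were called (8.41% lower and 9.31% higher). The median log2 difference was -0.51 over the tested members and -0.03 over all genes. *Gabbr1* had 111, 104 and 80.5 CPM in cycling cells of P3 replicates 1, 2 and 3 and 302, 240 and 237 CPM in the other cells (log2 difference -1.30 ± 0.07, edgeR adjusted p = 9.52e-10). *Gabbr2* had 31.7, 29.9 and 21.4 CPM against 127, 77.9 and 88.0 CPM (-1.69 ± 0.11, edgeR adjusted p = 8.05e-09), so both partners of the GABA-B receptor were lower. *Gabrb1* had 13.1, 11.1 and 12.6 CPM against 42.4, 35.8 and 49.0 CPM (-1.69 ± 0.09, edgeR adjusted p = 2.07e-09). The others that were lower were *Grin2c*, *Grm8* (a presynaptic-type Gi-coupled glutamate receptor), *Gabrb2*, *Chrm2*, *Grin1*, *Gabrg3*, *Adra2a* and *Grin2b*, with log2 differences from -1.68 to -1.06 and means of at most 13.4 CPM in either group. Telencephalic sub-clusters held 326, 456 and 366 of the cycling cells of P3 replicates 1, 2 and 3, and 1508, 1741 and 1471 of the others. In these sub-clusters alone the log2 difference was smaller for *Gabrb1* (-1.39) and *Chrm2* (-1.01) and larger for *Gabbr1* (-1.44) and *Gabbr2* (-1.99). There *Gabrg3* (-0.86) and *Grin2b* (-0.85) were under the fold threshold. So were *Grin2b* without P3 replicate 1 (-0.73) and *Gabrg3* and *Adra2a* without P3 replicate 2 (-0.83 and -0.97). With cycling cells defined by a UMI in 1 of the 3 genes *Chrm2* (-0.92), *Adra2a* (-0.94) and *Grin2b* (-0.83) were under it too.

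The 2 genes higher in cycling cells were both ionotropic glutamate receptor subunits. *Gria1* had 4.85, 5.82 and 7.19 CPM in cycling cells and 2.11, 1.498 and 1.96 CPM in the others, higher in 3 of 3 libraries (log2 difference 1.79 ± 0.23, edgeR adjusted p = 1.28e-05). *Grik1*, a kainate receptor subunit, had 1.94, 0.582 and 1.28 CPM against 0.372, 0.318 and 0.6003 CPM from 49 UMIs in all (1.56 ± 0.47, edgeR adjusted p = 0.0106), a call that DESeq2 did not make (adjusted p = 0.0891). *Gria2* differed by -0.39 (edgeR adjusted p = 2.6e-05), below the fold threshold, and *Grm5* by 0.14 (edgeR adjusted p = 0.106).

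**Figure D4:**
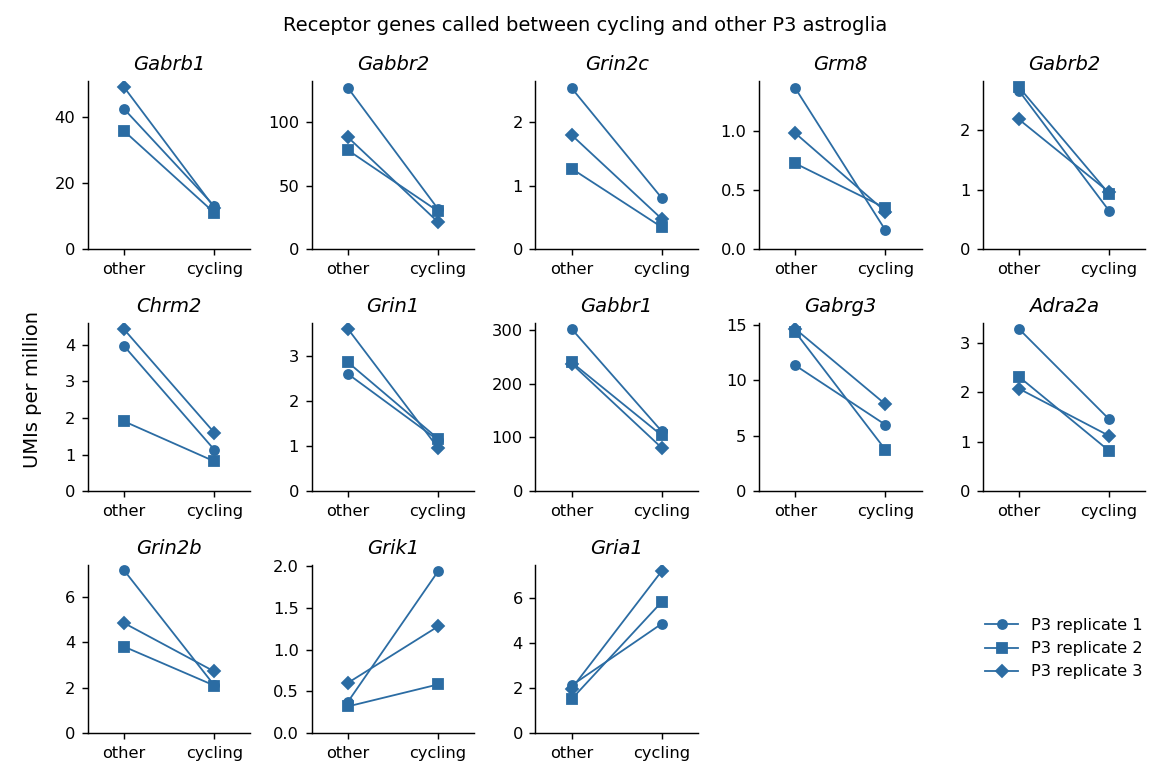
CPM of the 13 receptor genes called between cycling and other P3 astroglia (y axis, linear, own scale per panel), with a line per library joining its other cells and its cycling cells. All lines fall for 11 genes and rise for *Grik1* and *Gria1*.

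Receptor UMIs were also counted in the other cell types of the preparations. Levels are pooled over the cells of a type and given without a test, and low levels are not read as expression by that type. Oligodendrocytes (1731 cells, all from 3m) had *Gabbr1* at 186, 202 and 218 CPM in 3m replicates 1, 2 and 3, close to astroglia, *Grm3* at 69.5, 95.5 and 101 CPM, and the AMPA subunit *Gria4* at 32.2, 37.0 and 33.2 CPM, a gene with 0.407 ± 0.36 CPM in adult astroglia. They had *Gria2* at 19.1 CPM, *Gabrb1* at 9.38 CPM and *Grin2c* at 5.005 CPM over all libraries, each below the astroglia of the same age. Oligodendrocyte precursors at P3 (94 cells) had *Gria2* (642 CPM, exact 95% interval 580 to 710) and *Gria3* (101 CPM, 77.0 to 130), with *Gabbr1* at 119 CPM.

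Microglia had *Gabbr1* at 37.8 CPM at P3 and at 66.6 CPM at 3m, and *Gria2* at 14.2, 6.07 and 51.8 CPM in P3 replicates 1, 2 and 3 and at 0 in all 3 3m libraries. Pericytes (628 cells at P3) had *Grm3* at 43.6 CPM, *Gabbr1* at 39.2 CPM and *Gria2* at 19.8 CPM. Endothelial clusters 7 and 17 had *Gabbr1* at 12.7 and 26.8 CPM and *Grm3* at 10.6 and 21.9 CPM. *Chrnb1*, a muscle-type nicotinic subunit, had 7.74 CPM in cluster 7. Clusters 12 and 13, labelled endothelial but with medians of 1251 and 1362 UMIs, had *Gabbr1*, *Gria2* and *Grm5* as their leading receptors (121, 99.9 and 96.1 CPM, and 48.2, 34.3 and 35.5 CPM), which were also the leading 3 in P3 astrocytes. The 53 cells of the neuronal cluster, all from P3, had *Gria2* at 536 CPM, *Gabbr1* at 134 CPM and *Grm5* at 105 CPM, the last with 348 CPM in P3 replicate 1 and 45.6 and 115 CPM in the others.

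When all barcodes of a library were summed, which adds the change in cell types to that within them, 15 of 42 tested members were higher and 5 lower at 3m, while 34.5% of all genes were called (18.4% higher and 16.1% lower). Of the most changed members, *Grin2c* (6.30), *Gria1* (4.29), *Grm5* (-4.43), *Chrm2* (-5.21) and *Chrna4* (-3.46) were called in astroglia too (log2 fold changes). *Gabrr2* (5.60, from 0.0452 ± 0.04 to 2.26 ± 1.09 CPM), *Grm7* (5.23, from 0.173 ± 0.04 to 5.83 ± 0.84 CPM) and *Gria4* (4.14, from 1.27 ± 0.08 to 19.7 ± 2.73 CPM) were called in the whole preparation but had at most 2 UMIs each at 3m in astroglia. *Gabrb2* (-2.06) and *Gabrg3* (-1.67) were called lower there, with edgeR adjusted p-values of 0.0063 and 0.0181. Oligodendrocytes were annotated at 3m alone, and in summed barcodes more cells of a type and more RNA per cell cannot be told apart. With annotated cells only, 12 instead of 5 members were lower.

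Genes that work with these receptors were followed in the same astroglial fit, in lists taken by function. In that fit 32.1% of all genes were called, with a median log2 fold change of -0.04, and the shares called in the lists of GABA receptor partners, Homer scaffolds, cyclic AMP genes, and RGS proteins and receptor kinases (27.3 to 33.3%) lay near it. Of 15 AMPA and kainate auxiliary subunits 11 were tested, and 5 fell while 1 rose, with a median log2 fold change of -1.45. *Cacng4*, a TARP that guides AMPA receptors to the membrane, had 49.4 ± 6.42 and 5.04 ± 2.23 CPM (log2 fold change -3.02, edgeR adjusted p = 1.17e-06), *Neto2*, a kainate receptor partner, 35.4 ± 19.1 and 4.50 ± 1.31 CPM (-2.72, edgeR adjusted p = 0.000289), and *Cnih2*, an AMPA receptor export factor, 66.5 ± 14.1 and 8.31 ± 5.98 CPM (-2.71, edgeR adjusted p = 3.07e-05). Among GABA receptor partners 1 of 7 rose (*Gphn*, gephyrin, log2 fold change 1.10) and 1 fell (*Kctd12*, a GABA-B receptor partner, -1.79), and 1 of 3 Homer scaffolds fell (*Homer2*, which binds mGluR5, -1.49). Of 5 nicotinic modulators tested, *Lypd6* (3.81) and *Lynx1* (1.98) rose and *Ly6h* (-2.78) fell. All 15 adult *Ly6h* UMIs came from 3m replicate 2, and DESeq2 did not call it (adjusted p = 0.163).

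In the Gq arm 4 of 9 tested genes rose and 1 fell, led by *Plcb1* (phospholipase C, from 5.48 ± 0.84 to 53.7 ± 4.78 CPM, log2 fold change 3.49, edgeR adjusted p = 1.56e-08), *Prkcb* (-2.28) and *Itpr1* (1.73). In the Gi and Go arm 2 of 9 rose and 2 fell, among them *Gng2* (-4.74, with 0, 4 and 1 UMIs in the 3m libraries), *Gng7* (1.69) and *Gnao1* (1.65). In the cyclic AMP arm 3 of 11 were called, all higher, namely the adenylyl cyclases *Adcy2* (2.83), *Adcy9* (2.00) and *Adcy8* (1.56), of which *Adcy8* was at -0.04 in telencephalic sub-clusters alone and at 0.73 (edgeR adjusted p = 0.213) without 3m replicate 2. Of 20 RGS proteins and receptor kinases 2 rose and 4 fell, led by *Rgs6* (3.18), *Rgs9* (-1.87) and *Rgs17* (-1.79). Of 12 transmitter clearance genes 4 rose and 1 fell. *Maob*, which degrades monoamines, rose from 9.01 ± 2.94 to 73.3 ± 7.15 CPM (3.21, edgeR adjusted p = 1.7e-07), and *Slc1a2*, the main glial glutamate transporter, from 1126 ± 239 to 4809 ± 92.6 CPM (2.29, edgeR adjusted p = 7.02e-06). *Slc29a4*, a monoamine transporter, was called lower with 2 adult UMIs, both in 3m replicate 2, and the pooled ratio of P3 to 3m was 9.55 (exact 95% interval 2.62 to 79.2). Of 13 other receptor genes tested outside the set, 8 were called, all higher. The most changed were *P2ry12* (5.74), *Glrb*, the glycine receptor beta subunit (3.26), and *Hrh1*, a histamine receptor (2.19). *P2ry12* itself belongs to the 6 microglial markers. It had 6.91, 6.51 and 6.11 CPM in 3m replicates 1, 2 and 3. The sum of the 6 markers, which includes it, was 16.4, 54.2 and 6.79 CPM there. Whether microglial RNA had a part in its rise was not tested.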

How the data were processed

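Libraries of 3 P3 and 3 3m preparations were made with 10x 3′ chemistry and counted by the authors with Cell Ranger against GRCm38. The deposited values are UMI counts per gene and barcode, not normalized, with no column left without a sample. The authors' annotation gives clusters, astroglial sub-clusters and a pseudotime score made by the authors with Slingshot. Astroglial cells had over 500 genes and under 10% mitochondrial UMIs, as tested on the file.

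Counts were summed per library over astroglia, over all barcodes, or over cycling and other P3 astroglia, and tested with edgeR 4.0.16 (filterByExpr, TMM, quasi-likelihood, Benjamini-Hochberg over all genes tested; R 4.3.3), with DESeq2 1.42.0 as an alternative. The fits were tested on simulated data first. Shares of cells used exact permutation tests (two-sided), and intervals are exact at 95% for counting error only. A 0 count is bounded at 3 UMIs over the pooled libraries of an age. Doublets were not called here. Cell types are those of the authors' annotation.

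Named genes are the members called in a comparison (for all barcodes the 5 most changed each way), the 12 with the highest mean CPM at each age, the 3 highest in each type of at least 50 cells and the 3 most changed genes of each pathway list, except that a few members are not reported here. The members and lists were chosen with earlier results of these data known. Promoter windows came from RefSeq (GRCm38.p6), and gene positions from the annotation of the same genome build.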

Additional observations from a re-analysis of the deposited data

How the results depend on the processing

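Over all alternatives 7 members (*Grm5*, *Gabrg1*, *Gria2*, *Gabrb1*, *Grin2b*, *Gria1* and *Grin2c*) were called in the same direction in each of 16 refits of the age comparison. The number of members called higher in astroglia was 8 to 13. The number called lower (4 in the report) was 2 after the stricter cell filter, 1 after thinning to the smallest library, 2 without cells carrying other markers, and 1 to 5 when 1 library was left out. In each fit without a P3 library only 10 of the 14 called genes were still tested, and all 10 were called. In all barcodes the number called lower (5) was 12 in annotated cells, 8 with no filter on low counts and 4 to 8 with 1 library left out. Of the cycling comparison the number called higher (2) was 1 with DESeq2, 4 with no filter, 1 without the replicate block and 1 to 2 with 1 library left out, and the number called lower (11) was 9 to 13, with 9 of all 13 calls kept when cycling was defined by 1 of 3 genes and 10 with DESeq2. The number of genes with a higher share of cells at 3m without overlap was 11 when thinned to 2000 UMIs. It was 8 when thinned to 1000 UMIs, 7 without thinning and 11 to 13 with 1 library left out. At 1000 UMIs the shares of *Grm3*, *Adra2a* and *Htr6* overlapped between the ages, and that of *Gabrg3* was lower at 3m without overlap. Some of the fits named held fewer genes or cells, and the causes of these differences were not tested.

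Signs turned only for log2 fold changes that were not called and for *Adcy8*. *Gabbr1* was at -0.044 in non-cycling cells and -0.012 without cells carrying other markers. *Gabbr2* was at -0.11 in telencephalic sub-clusters and between -0.010 and 0.57 with 1 library left out. *Grik5* was at -0.073 without scaling beyond library totals, -0.22 after the stricter cell filter and between -0.0030 and 0.23 with 1 library left out. *Adcy8* was at -0.041 in telencephalic sub-clusters. In percentage points, the share of cells with *Adrb1* differed by 0.717 when thinned to 1000 UMIs and by -0.668 to 0.778 with 1 library left out. *Gabbr1* differed by -2.52 at 1000 UMIs, -15.3 without thinning and -1.11 to 2.73 with 1 library left out, *Gabbr2* by -9.09 without thinning and -1.97 to 2.63, and *Grik5* by -0.793 to 0.0687. *Gabra2* and *Gabra4* differed by -1.95 and -1.65 without thinning.

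The all-gene median log2 fold change was -0.04 with TMM scaling and -0.24 without it. Deviations of same-numbered libraries correlated at 0.206, 0.0993 and 0.0390, and 0.206, for replicate 1, was the highest of all pairs. P3 replicate 3 correlated best with 3m replicate 2 (0.142). With so few libraries these values cannot settle whether replicate numbers pair the samples. With the replicate block 11 members were higher and 4 lower in astroglia, all 14 called genes among them, and 19 and 7 in all barcodes. Adult astroglia gave at most 1843998 UMIs per library, so genes near 1 CPM rest on 1 or 2 UMIs.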
